A study of Mus musculus with 18 samples.

Results

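Orbital cortex, the frontal cortex that lies above the eyes and beside the olfactory bulb, was compared with dorsal cortex in control mice at birth (postnatal day 0). The libraries were those labelled control and Orbital (3) and those labelled control and Dorsal (3), which made 6 of the 18 RNA-seq libraries of the series. They were paired by the first letters of the library title and by the row of the index plate, which gave 3 rows, each with 1 orbital, 1 medial and 1 dorsal library. The other 12 libraries are the 3 medial libraries of these control rows and 9 libraries (3 each of orbital, medial and dorsal cortex) from mice mutant for both Rxrg and Rarb, called dKO here. The control animals are described by the labels as control and by no strain, sex or allele, and the labels do not say whether the 3 libraries of a row came from 1 brain or from pooled tissue. The labels do not say how the alleles of the double mutant were made. The design text names the dissected regions as medial frontal, motor and orbitofrontal cortex, and the region labelled Dorsal is called dorsal cortex here. Each test below sets a difference against the spread left between libraries within rows, pooled over all 18 libraries. That spread may be partly technical, as the origin of the libraries of a row is not known.

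The neonatal cortex is a sheet of glutamatergic neurons born in the order of their layers, with the upper layer neurons (Cux1 and Cux2 are among their factors) the last to arrive. Area identity is set by gradients of transcription factors, among them Lhx2 and Emx1, and by signals from the margins of the sheet. Orbital cortex is bordered by the olfactory bulb and its covering of ensheathing glia, by the piriform and insular cortex and by the striatum. The meninges over the brain make retinoic acid, a ligand of the receptor encoded by Rarb, which is among the genes mutated in the dKO animals.

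The 6 libraries held between 28957325 and 91836786 counts assigned to genes, and both libraries of row 1 were deeper (70636819 and 91836786) than the 4 others (at most 32910177). Tbr1, a factor of glutamatergic cortical neurons, was used to check that such neurons were present. It stood at 322, 244 and 164 CPM (counts scaled to library size) in orbital libraries 1 to 3 and at 340, 327 and 206 CPM in dorsal libraries 1 to 3. It did not pass the test (log2 fold change of -0.27, adjusted p = 0.292, edgeR), and all 6 libraries carried it. Its presence cannot show which region a library came from. Libraries are numbered by row throughout, CPM are scaled by the trimmed mean of M values (TMM), fold changes are orbital against dorsal, and adjusted p values come from edgeR's quasi-likelihood test with Benjamini-Hochberg adjustment over all genes tested.

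The regions differed in many genes. Of 18730 genes tested, 1196 were higher in orbital cortex and 1769 were lower at an adjusted p under 0.05, which is 15.8% of the genes tested (6.39% higher and 9.44% lower). Each count of list members below is to be read beside these shares. The higher genes had a median log2 fold change of 0.95 and the lower genes one of -0.71, beside 0.03 over all genes tested. A difference of at least 2-fold was reached by 554 of the higher and 339 of the lower genes, and one of at least 4-fold by 85 and 28. The orbital libraries lay wholly above the dorsal libraries in 888 of the 1196 higher genes and wholly below them in 997 of the 1769 lower genes. Over all genes tested, 10.3% lay wholly above and 8.45% wholly below.

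The count rests on the pairing by row and on each library. Without the row as a block 22 genes were higher and 31 lower, 53 in all. With upper quartile scaling 53.3% of the called genes were higher, against 40.3% with TMM. Leaving out 1 library at a time gave 1882 called of 19406 genes tested without orbital library 2. It gave 1452 of 19438 without orbital library 3 (796 higher and 656 lower). Without dorsal library 1 there were 1276 of 19438, and without dorsal library 3 there were 1068 of 19508. The called genes without orbital library 1 and without dorsal library 2 numbered 2223 of 19396 and 1983 of 19474. Calls over all genes thus fell in each of these fits. The list counts without 1 library, given below, stand beside that fall. Without row 3, 525 genes were higher and 398 lower, so the excess of lower genes turned there and without orbital library 3. Of 209 genes named here that were called, 101 kept their call without any 1 of the 6 libraries, and for the others described here the libraries without which the call was lost are given beside the gene.

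**Figure D1:**
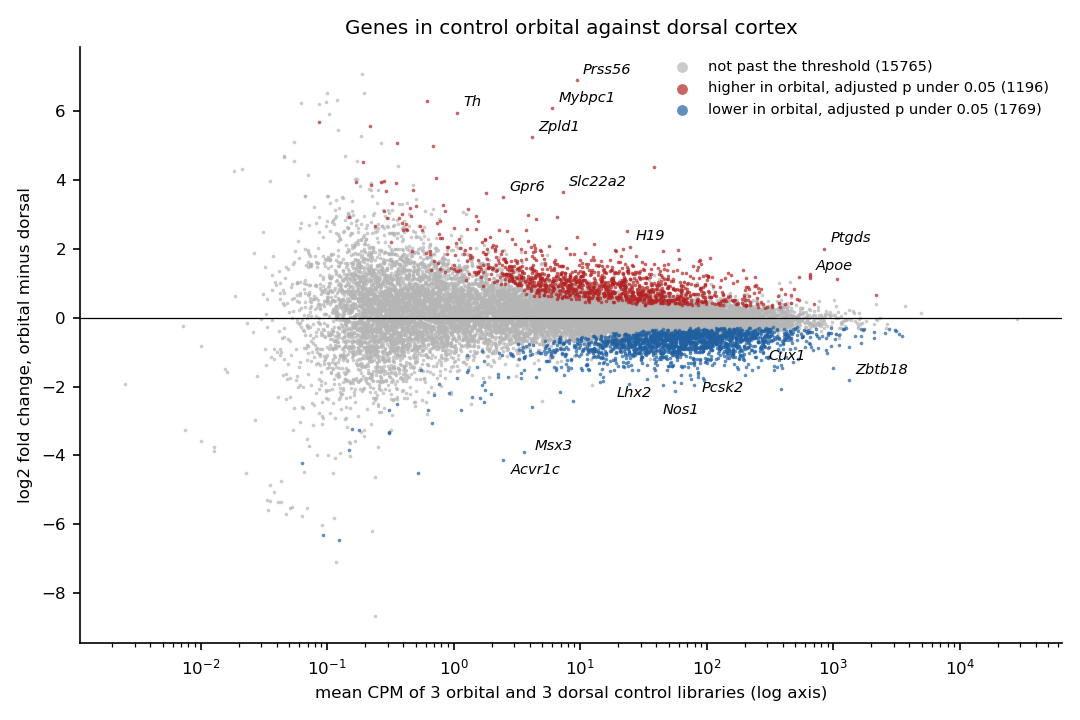
Each point is 1 of the 18730 genes tested. The horizontal axis (log scale) is the mean CPM over the 3 orbital and 3 dorsal control libraries and the vertical axis the log2 fold change, orbital minus dorsal; red points are the 1196 genes higher in orbital, blue points the 1769 genes lower, grey points the rest. Prss56, Mybpc1 and Th lie highest among the labelled genes, and the lower genes sit at higher CPM (median of 65.3 CPM for lower and 14.96 CPM for higher genes).

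Upper layer neuron genes were lower in orbital cortex. Of 16 list members tested, 11 were lower and 1 was higher, beside 9.44% lower and 6.39% higher over all genes tested. Their median log2 fold change was -1.01. Lhx2, a LIM homeobox factor needed for cortical identity, stood at 17.1, 21.4 and 17.1 CPM in orbital libraries 1 to 3 and at 66.1, 79.8 and 68.2 CPM in dorsal libraries 1 to 3. The 2 regions were far apart in every row, and Lhx2 was 3.86-fold lower in orbital cortex (log2 fold change -1.95, SE 0.20, adjusted p = 0.000505). Cux1 and Cux2, homeobox factors of the upper layers, had log2 fold changes of -1.16 and -1.29 (adjusted p = 0.000573 and 0.000578). Cux1 measured 149, 155 and 149 CPM in orbital and 284, 394 and 342 CPM in dorsal libraries, and Cux2 24.3, 46.9 and 19.8 CPM against 58.7, 113 and 49.1 CPM.

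Other lower members were Inhba, which encodes an activin subunit (log2 -1.91), the ubiquitin ligase Dtx4 (-1.18), the POU factors Pou3f1 (-1.21) and Pou3f3 (-0.82), the netrin receptor Unc5d (-1.69), and the factor Bhlhe22 (-0.86). Bhlhe22 lost its call without orbital library 2 or 3 or dorsal library 2 or 3, and Unc5d was a lower member whose orbital and dorsal libraries overlapped (50.4 CPM in orbital library 2 and 45.1 CPM in dorsal library 3). The LIM factor Lmo4 went the other way, with 213, 159 and 269 CPM in orbital and 85.3, 80.3 and 164 CPM in dorsal cortex. It was higher in orbital cortex by a log2 fold change of 0.99 (adjusted p = 0.0141), a call lost without orbital library 2 or dorsal library 1. The summed level of the 16 genes was 1090 to 1490 CPM in orbital and 2180 to 2930 CPM in dorsal libraries. In bulk tissue, fewer cells of a type and less RNA per cell cannot be told apart.

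Of 21 deep layer genes tested, 3 were lower and 1 was higher, beside 9.44% lower and 6.39% higher over all genes tested, with a median of -0.22. The difference from the upper layer list was not tested. Sox5, a factor of corticofugal neurons, was lower (65.4, 78.3 and 37.6 CPM in orbital, 134, 155 and 106 CPM in dorsal cortex; log2 -1.18, adjusted p = 0.00489), as was the neurotensin receptor Ntsr1 of layer 6 (log2 -0.85, adjusted p = 0.00648). Bcl11b, a factor of subcerebral projection neurons, had a log2 fold change of -0.67 (adjusted p = 0.0387), and its call was lost without any 1 of the 6 libraries. Crym, a thyroid hormone binding protein of deep layer neurons, was higher (24.6, 10.8 and 34.0 CPM against 18.5, 3.44 and 6.65 CPM; log2 1.48, adjusted p = 0.0128), a call lost without orbital library 2 or 3 or dorsal library 3. Fezf2, a master factor of layer 5, measured 62.6, 29.6 and 50.6 CPM in orbital and 53.6, 31.8 and 43.8 CPM in dorsal cortex and did not pass the test (adjusted p = 0.657). The count of 4 was 2 without orbital library 3 or dorsal library 3.

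Among 36 area patterning factors tested, 7 were lower and 2 higher (median -0.11), beside 9.44% lower and 6.39% higher over all genes tested. Besides Lhx2, Bhlhe22, Lmo4 and Crym, which are in this list too, the called members included the homeobox factor Emx1 (7.42, 5.09 and 5.55 CPM in orbital, 12.0, 12.0 and 13.8 CPM in dorsal cortex), and the cadherins Cdh6 and Cdh8. All 3 orbital values of Emx1 lay below all its dorsal values (log2 -1.08, adjusted p = 0.00816), and the call was lost without dorsal library 3. Cdh6 had a log2 fold change of -1.47 and Cdh8 one of -0.69. Nr2f1 and Nr2f2, nuclear receptors of caudal and ventral cortex, had log2 fold changes of 0.15 and 0.57 and did not pass the test (adjusted p = 0.686 and 0.0732). Emx2 and Pax6, which form opposed gradients along the cortex, had values of -0.15 and 0.15 and adjusted p of 0.695 and 0.831. The count of 9 was 5 without orbital library 2 and 4 without dorsal library 3.

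The genes lower in orbital cortex with the lowest p in the whole table included Pcsk2, the prohormone convertase of neuropeptide processing. It measured 26.7, 38 and 36.3 CPM in orbital and 92.2, 132 and 123 CPM in dorsal cortex. The regions did not overlap, and Pcsk2 was 3.44-fold lower in orbital cortex (log2 -1.78, SE 0.16, adjusted p = 0.000395). Zbtb18, a zinc finger repressor of cortical neuron development, measured 600, 951 and 322 CPM in orbital and 1870, 2330 and 1870 CPM in dorsal cortex, a 3.51-fold difference (log2 -1.81, adjusted p = 0.000576). Tbc1d5, a Rab GTPase regulator, had a log2 fold change of -1.87, the soluble guanylate cyclase subunit Gucy1a1 one of -1.22, the synaptic calsyntenin Clstn2 one of -1.80, and the actin-binding proteins Ablim1 and Limch1 values of -1.43 and -1.25. Foxred2, an endoplasmic reticulum oxidoreductase, had one of -1.52. The phosphodiesterase Pde10a (-1.12) was lower in each row although its orbital and dorsal libraries overlapped, since whole rows differed in level. It measured 44.0, 58.4 and 26.4 CPM in orbital and 90.6, 133 and 58.0 CPM in dorsal cortex.

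Larger fold changes were seen in genes of lower level. The activin receptor Acvr1c measured 0.546, 0.121 and 0.150 CPM in orbital and 3.44, 7.73 and 2.70 CPM in dorsal cortex (log2 -4.12, SE 0.79, adjusted p = 0.00562). Msx3, a homeobox gene of the dorsal neural tube, measured 0.360, 0.424 and 0.0300 CPM against 1.03, 18.8 and 0.988 CPM. Dorsal library 2 was far above the other dorsal libraries, and the call (log2 -3.89, adjusted p = 0.00773) was lost without orbital library 2. Nos1, the neuronal nitric oxide synthase, measured 22.1, 46.4 and 8.04 CPM in orbital and 108, 81.5 and 72.5 CPM in dorsal cortex, a 4.38-fold difference (log2 -2.13, adjusted p = 0.00311). Lipg, which encodes endothelial lipase, the sulfotransferase Hs6st3, Dcst1 and the kinase Map3k21 had log2 fold changes of -2.16, -2.68, -2.31 and -2.09. The protease Pappa2 (-2.43) lost its call without dorsal library 1 or 3, Col7a1 (-2.44) without any library but dorsal library 3, and the adhesion receptor Adgrd1 (-2.33) without orbital library 2 or 3 or dorsal library 2 or 3.

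**Figure D2:**
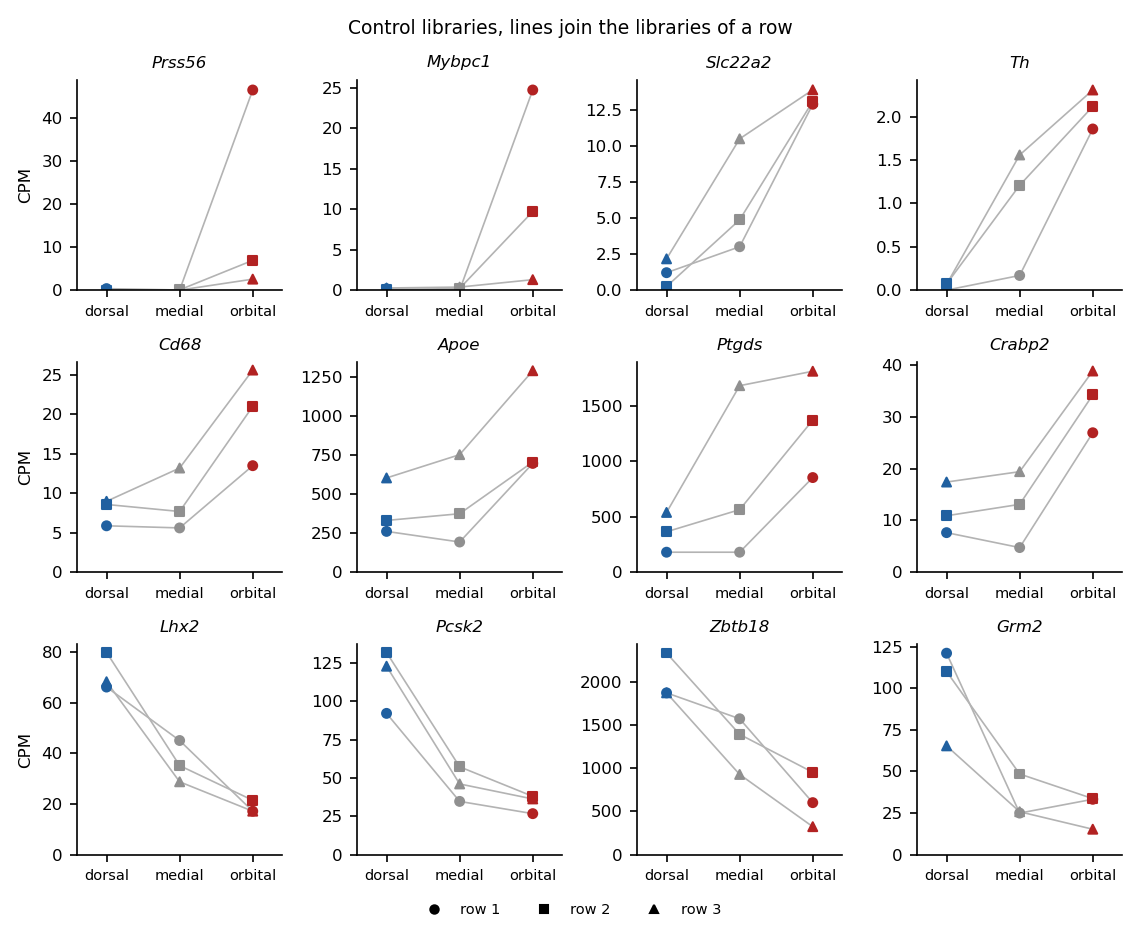
CPM of 12 genes in the 9 control libraries; the horizontal axis gives the region, each symbol is 1 library, its shape marks the row, and grey lines join the 3 libraries of a row. Each panel has its own linear axis from 0. In the top 2 lines of panels every orbital value lies above every dorsal value, and in the bottom line (Lhx2, Pcsk2, Zbtb18, Grm2) every orbital value lies below.

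Some genes of synapse assembly and transmission were lower in orbital cortex, while most members of each list did not pass the test. The shares over all genes tested were 9.44% lower and 6.39% higher. Of 34 synaptic organizers tested, 15 were lower and 1 was higher (median -0.56). Of 27 presynaptic release genes 13 were lower and none higher (-0.49), of 24 glutamate receptor genes 9 were lower and none higher (-0.66), and of 27 voltage-gated potassium channel genes 11 were lower and none higher (-0.54). All genes tested were divided into 10 bins of like size by exon length, the summed bases of all exons of a gene. The bin with the longest summed length (median of 11610 bases) had a median log2 fold change of -0.35 and the bin with the shortest (748 bases) one of 0.225. In the longest bin 594 genes were lower and 33 higher. In the shortest bin 7 were lower and 64 higher, and in the next to shortest bin 15 were lower and 180 higher. The longest bin was negative in each of the 3 control rows, with median log2 CPM differences of -0.37, -0.20 and -0.49, and the part of RNA quality or library making in this trend was not tested.

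**Figure D3:**
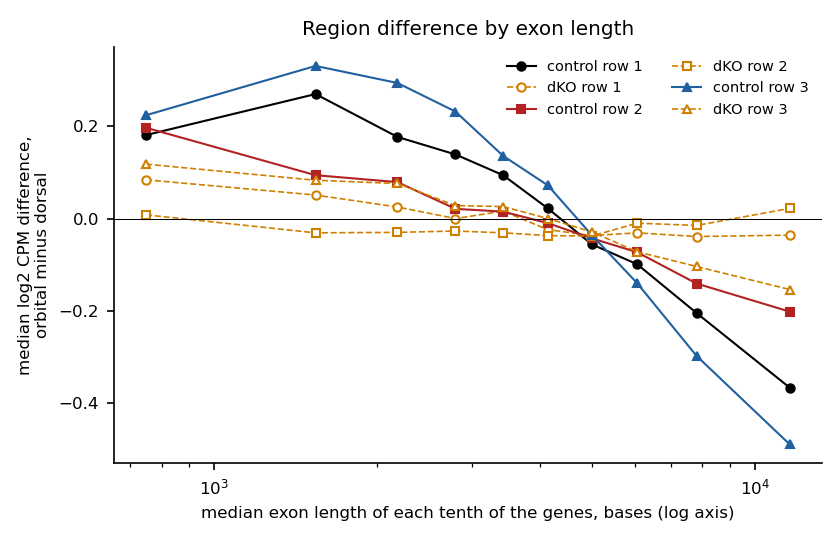
Median log2 CPM difference, orbital minus dorsal, of the genes in each of the 10 bins by exon length, against the median exon length of the bin in bases (log axis), for the 3 control rows (filled symbols, solid lines) and the 3 dKO rows (open symbols, dashed lines). The control rows run from 0.18 to 0.22 in the shortest bin to between -0.20 and -0.49 in the longest, while the longest bin lies between -0.15 and 0.02 in the dKO rows.

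When a smooth trend with exon length was removed from every library, an alternative chosen after seeing the data, 1147 genes were higher and 1433 lower, 2051 of them called in the same direction as before and none in the opposite one. The synaptic organizers then had 10 lower and 1 higher (median -0.34), the presynaptic genes 11 and 1 (-0.35), the glutamate receptors 6 and 1 (-0.37), the potassium channels 8 and 0 (-0.47) and the upper layer genes 10 and 1 (-0.80). The direction of these groups thus did not change, and their medians were smaller in size. Of the 209 named genes called, 166 kept their call and none reversed; the genes described here that did not keep it included Bcl11b, Adgrd1, Aqp1, Reln, Penk, Foxp1, Fcrls, Rbp4, S100b, Gas1, Hes5, Btg2, Notch1, Sox6, Prox1, Bmp4, Bmp5, Cartpt, Cspg4, Dcc and Clic6.

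Among glutamate receptors, Grm2, the presynaptic group II metabotropic receptor, measured 33.2, 33.6 and 15.2 CPM in orbital and 121, 110 and 65.3 CPM in dorsal cortex. All its orbital libraries lay below all its dorsal libraries, a 3.69-fold difference (log2 -1.89, SE 0.21, adjusted p = 0.000573), and the value was -1.86 with the length trend removed. The other metabotropic receptors Grm3 (log2 -0.94) and Grm8 (-1.43) were lower too, as were Grm7 (-0.85; lost without orbital library 3 or dorsal library 1 or 3) and Grm4 (-1.06; lost without orbital library 3 or any dorsal library). The ionotropic subunits Gria2 (-0.55), Grin1 (-0.84) and Grin2b (-0.92) each lost their call without orbital library 2 or 3 and 1 dorsal library (library 3 for Gria2 and Grin1, library 1 for Grin2b). With the length trend removed, Gria2 (-0.11, adjusted p = 0.53) and Grin2b (-0.31, adjusted p = 0.171) no longer passed. The count of called glutamate receptors fell from 9 to 4 without orbital library 3 or dorsal library 3, and to 5 without orbital library 2 or dorsal library 1.

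Among synaptic organizers, which join the 2 sides of a synapse, Cadm2, an immunoglobulin-domain adhesion protein, measured 110, 171 and 80.7 CPM in orbital and 213, 352 and 264 CPM in dorsal cortex (log2 -1.24, adjusted p = 0.0017). The latrophilin Adgrl3 had a log2 fold change of -1.26, the neuroligin Nlgn1 one of -0.74 and the LAR-family phosphatase Ptprd one of -0.84. Its relatives Ptprf (-1.12) and Ptprs (-0.88), Nrxn2 (-1.05) and Adgrl2 (-1.16) were lower as well, and all 4 of these lost their call without dorsal library 1, and Ptprf, Ptprs and Adgrl2 also without orbital library 3 (Ptprs also without dorsal library 3). With the length trend removed, Nlgn1 (adjusted p = 0.182) and Ptprd (adjusted p = 0.129) no longer passed. The count of 16 called organizers was 11 without orbital library 2, 5 without orbital library 3, 4 without dorsal library 1 and 8 without dorsal library 3. Calls over all genes fell too, from 2965 to 1882, 1452, 1276 and 1068 in the same fits.

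Of the presynaptic genes, the priming factor Unc13a measured 61.8, 56.5 and 24.1 CPM in orbital and 142, 111 and 78.8 CPM in dorsal cortex (log2 -1.29, adjusted p = 0.00193). The active zone proteins Rims1 (-1.01) and Pclo (-0.83) and the vesicle protein Sv2c (-1.46) were lower, and Pclo did not pass with the length trend removed (-0.26, adjusted p = 0.288). Sv2a (-0.65; lost without orbital library 2 or 3) was lower as well. The 13 called genes were 8 without orbital library 2, 5 without orbital library 3, and 6 without dorsal library 1 or dorsal library 3. Among potassium channels, Kcnh1 measured 7.43, 7.33 and 6.06 CPM in orbital and 19.2, 28.3 and 22.8 CPM in dorsal cortex, a 3.30-fold difference (log2 -1.72, adjusted p = 0.000573). Kcnc1, a fast delayed rectifier, had a log2 fold change of -0.96, and the M-current subunit Kcnq3 (-1.20) and Kcna4 (-1.52) lost their call without dorsal library 3. The 11 called channels were 5 without orbital library 3, 6 without dorsal library 1 and 3 without dorsal library 3. Of 12 GABA-A receptor subunits 4 were lower and 1 was higher (median -0.17), beside 9.44% lower and 6.39% higher over all genes tested. The lower ones included the beta subunit Gabrb2 (-1.16, adjusted p = 0.0049). The 5 called subunits were 2 without orbital library 2 or 3 or dorsal library 3 and 3 without dorsal library 1 or 2.

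Among axon guidance and adhesion genes, too, most members of each list did not pass the test. The shares over all genes tested were 9.44% lower and 6.39% higher. Of 31 semaphorins, plexins and neuropilins 13 were lower and none was higher (median -0.47), of 29 cadherins and non-clustered protocadherins 11 were lower and none higher (-0.50), of 22 Eph receptors and ephrins 7 were lower and none higher (-0.21), and of 22 netrins, Slits and their receptors 5 were lower and none higher (-0.32). The plexin receptors Plxna1 (-1.33), Plxna2 (-1.42) and Plxna3 (-1.21) and the transmembrane semaphorins Sema6b (-0.65) and Sema6c (-0.64) were among them. Robo2, a Slit receptor, measured 90.2, 179 and 46.2 CPM in orbital and 253, 392 and 248 CPM in dorsal cortex. It was lower in every row by a log2 fold change of -1.65 (adjusted p = 0.00117). Epha4 measured 44.9, 57.1 and 27.6 CPM against 117, 159 and 102 CPM (log2 -1.58, adjusted p = 0.00147), and Epha3 and Epha5 had log2 fold changes of -1.23 and -0.54. Epha5 did not pass with the length trend removed (-0.07, adjusted p = 0.732).

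The atypical cadherin Celsr2 measured 28.9, 65.0 and 15.3 CPM in orbital and 126, 153 and 85.4 CPM in dorsal cortex, a 3.86-fold difference (log2 -1.95, adjusted p = 0.00276). The protocadherins Pcdh7, Pcdh8 and Pcdh9 (-1.41, -0.83 and -1.37) and the cadherin Cdh12 (-1.18) were lower. With the length trend removed 11 semaphorin genes, 9 cadherins, 5 Eph genes and 2 netrin or Slit genes were lower, and 1 cadherin was higher. Without 1 library, the fewest called were 5 semaphorin genes (without dorsal library 1; 8 without orbital library 2, 7 without orbital library 3 and 6 without dorsal library 3), 7 cadherins (without dorsal library 1) and 3 Eph genes (without dorsal library 3; 4 without orbital library 2 or 3 or dorsal library 1). The netrin and Slit genes were 2 without orbital library 3 or dorsal library 1 or 3.

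**Figure D4:**
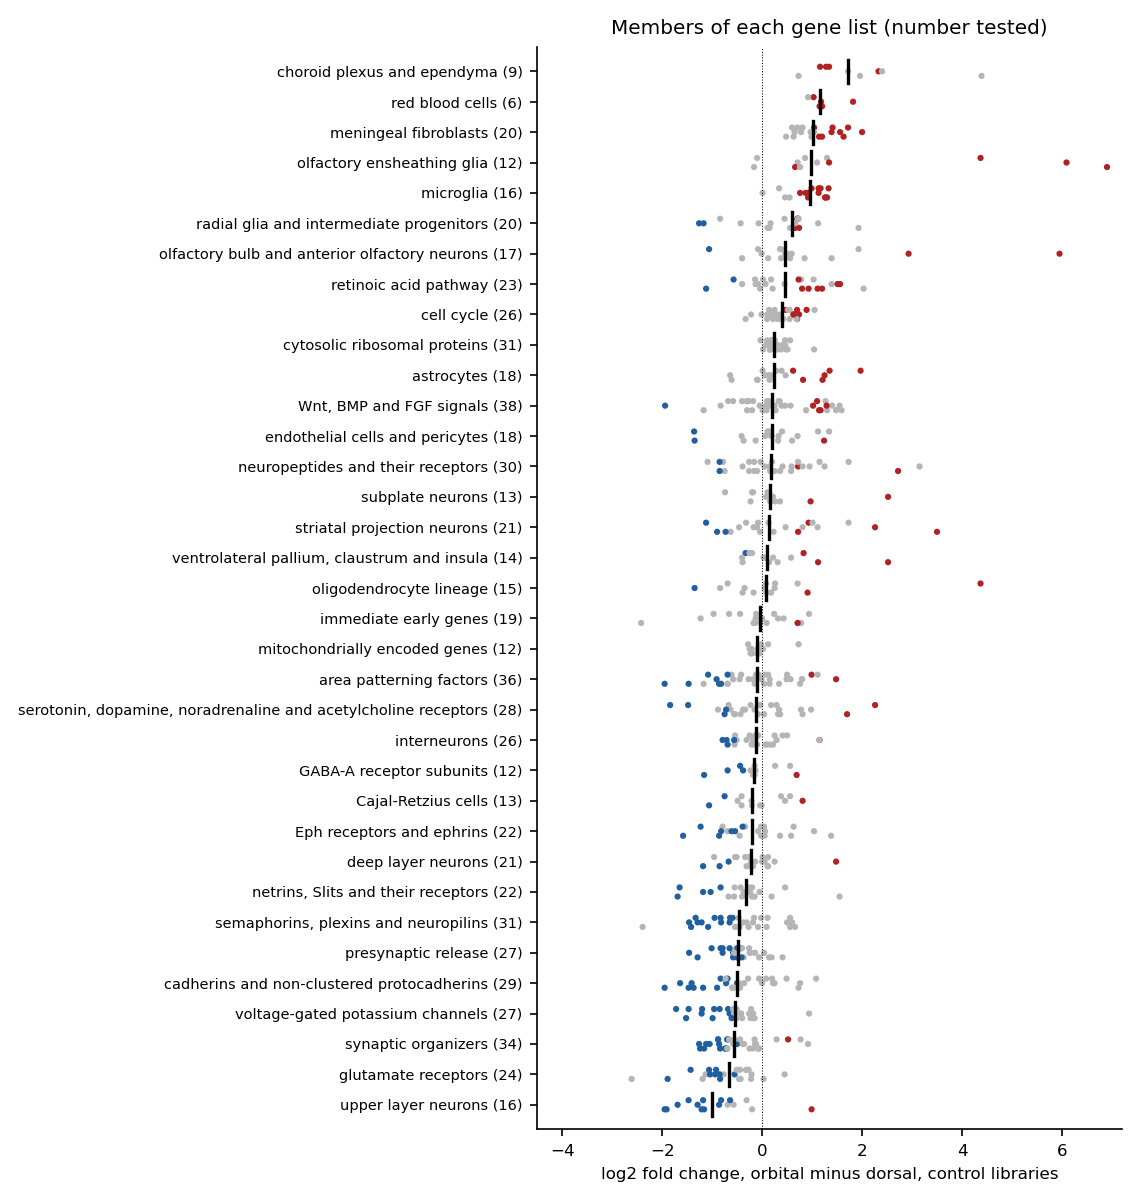
Log2 fold change, orbital minus dorsal in control libraries, of the tested members of 35 gene lists, sorted by their median (black bar). Red points were higher and blue points lower at an adjusted p under 0.05, grey points passed neither way, and the number of members tested is in parentheses. Upper layer neurons lie at the bottom (median -1.01), and microglia (0.95), meningeal fibroblasts (1.02) and red blood cells (1.16) lie near the top.

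Prss56 and Mybpc1, which mark the ensheathing glia that wrap the olfactory nerve, were far higher in orbital cortex. Prss56 encodes a trypsin-like serine protease and lies at chr1:87183313-87188405 on the plus strand (GRCm38). It measured 46.5, 6.91 and 2.55 CPM in orbital libraries 1 to 3 and 0.349, 0 and 0.0659 CPM in dorsal libraries 1 to 3, from 4573 and 25 counts in all. Orbital library 1 was far above the other orbital libraries, all orbital values lay above all dorsal values, and the fitted log2 fold change was 6.90 (SE 0.85, adjusted p = 0.00087). Mybpc1, a myosin-binding protein, measured 24.7, 9.70 and 1.29 CPM against 0.167, 0.0358 and 0.263 CPM. Both genes had the same order of the orbital libraries, row 1 above row 2 above row 3, and the call of Mybpc1 (log2 6.09, SE 1.38, adjusted p = 0.0133) was lost without orbital library 1 or 2 or dorsal library 1 or 2.

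Of the 12 ensheathing glia genes tested 5 were higher and none lower (median 0.98), beside 6.39% higher and 9.44% lower over all genes tested. Other called members were Fabp7, the brain lipid-binding protein of glia (log2 0.66), and the water channel Aqp1 (1.34), whose call was lost without any library but orbital library 3. Sox10, the factor of these glia and of oligodendrocytes, had a log2 fold change of 0.71 and Frzb, a secreted Wnt antagonist, one of 1.30 (adjusted p = 0.175 and 0.063), and Npy one of -0.16. Foxd3 and S100a4 were too low to be tested, and Foxd3 stood at 2.15, 0.636 and 0.0300 CPM in orbital cortex and at 0 in the 3 dorsal libraries. The count of 5 was 3 without orbital library 1, dorsal library 1 or dorsal library 2. The stretches before the start sites of Prss56 (chr1:87183064-87183308, plus strand) and Mybpc1 (chr10:88605158-88605402, minus strand) are given because these genes had the largest fold changes among the genes named. They are from RefSeq promoter windows (GRCm38.p6) and end 5 bases before the start site, with a match to the letters TATATA in capitals. Both strands of each window were searched for TATATA, which 5.25% of 32851 promoter windows hold, and for the SOX letters ACAAAG or ACAATG, which 25.2% hold.
Prss56: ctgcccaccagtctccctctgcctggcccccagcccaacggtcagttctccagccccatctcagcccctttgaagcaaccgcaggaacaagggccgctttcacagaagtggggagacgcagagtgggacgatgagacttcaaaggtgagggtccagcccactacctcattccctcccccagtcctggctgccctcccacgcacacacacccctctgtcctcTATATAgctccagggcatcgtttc
Mybpc1: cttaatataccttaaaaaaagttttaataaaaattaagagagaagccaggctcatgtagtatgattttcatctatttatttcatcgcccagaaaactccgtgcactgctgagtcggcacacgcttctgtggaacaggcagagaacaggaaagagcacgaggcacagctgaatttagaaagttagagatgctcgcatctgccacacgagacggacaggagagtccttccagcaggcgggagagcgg
TATATA lies 23 bases before the start site of Prss56, and no searched letters were found in the Mybpc1 stretch.

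Genes of the neighbouring olfactory bulb gave a mixed picture. Of 17 tested, 2 were higher and 1 was lower (median 0.46), beside 6.39% higher and 9.44% lower over all genes tested. Th, the rate-limiting enzyme of dopamine synthesis, measured 1.86, 2.12 and 2.31 CPM in orbital and 0, 0.0716 and 0.0659 CPM in dorsal cortex, from 317 and 4 counts in all. The 3 orbital libraries were alike and all far above the dorsal ones (log2 5.95, SE 0.86, adjusted p = 0.0017). The mitral cell cadherin Cdhr1 measured 6.15, 25.3 and 4.47 CPM against 1.46, 0.394 and 1.84 CPM (log2 2.93, adjusted p = 0.0138; lost without orbital library 2 or dorsal library 3). Reln, the glycoprotein made by Cajal-Retzius cells and by mitral cells, was lower (log2 -1.06, adjusted p = 0.0121; lost without orbital library 1 or 3 or dorsal library 1). The mitral cell factors Tbx21 and Eomes were at most 1.27 and 3.70 CPM in any of the 6 libraries and did not pass the test. The summed level of the list was 164 to 408 CPM in orbital and 228 to 475 CPM in dorsal libraries.

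Genes of the striatum and of lateral cortex also included some that were higher. Drd2, the dopamine receptor of indirect pathway neurons, measured 7.13, 3.82 and 3.45 CPM in orbital and 0.804, 1.29 and 0.955 CPM in dorsal cortex, a 4.81-fold difference (log2 2.26, adjusted p = 0.00671). Gpr6, an orphan receptor of the same neurons, measured 2.95, 3.03 and 7.41 CPM against 0.0758, 1.04 and 0.263 CPM (log2 3.5, adjusted p = 0.00982; lost without dorsal library 1 or 3). Penk (log2 0.72) and the factor Ebf1 (0.93) were higher too, Penk lost without orbital library 1 or 3 or dorsal library 1 or 2 and Ebf1 without any 1 of the 6. Of the 21 striatal genes tested 4 were higher and 3 lower (median 0.13), beside 6.39% higher and 9.44% lower over all genes tested. The lower ones were Pde10a, Foxp1 (-0.73) and Syndig1l (-0.90), and Drd1, the receptor of direct pathway neurons, had a log2 fold change of -0.63 (adjusted p = 0.139). The summed level of the striatal list was lower in orbital (724 to 934 CPM) than in dorsal libraries (1080 to 1170 CPM). The count of 7 was 4 without dorsal library 1.

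Of 14 genes of ventrolateral pallium, claustrum and insula 3 were higher and 1 was lower (median 0.10). The shares over all genes tested were 6.39% higher and 9.44% lower. Nr4a2, the nuclear receptor that marks claustrum and subplate, measured 18.4, 52.6 and 48.9 CPM in orbital and 5.58, 8.77 and 5.11 CPM in dorsal cortex. Every orbital value lay above every dorsal value, a 5.75-fold difference (log2 2.52, SE 0.64, adjusted p = 0.0185), and the call was lost without orbital library 1 or 3 or dorsal library 2 or 3. Nnat, an imprinted proteolipid, measured 1570, 850 and 2030 CPM against 585, 634 and 711 CPM (log2 1.12, adjusted p = 0.00225). Of 13 subplate genes, Nr4a2 and the lysophosphatidic acid receptor Lpar1 were higher and none was lower (median 0.16). The Lpar1 call (log2 0.97) was lost without orbital library 2 or dorsal library 3. The claustrum list had 1 called member without orbital library 3 or dorsal library 3, and the subplate list had 1 without any 1 of the orbital libraries or dorsal library 2 and 0 without dorsal library 3.

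Neurod1, a bHLH factor of newly made glutamatergic neurons, measured 81.0, 41.9 and 58.2 CPM in orbital and 26.3, 18.9 and 20.2 CPM in dorsal cortex. The orbital libraries were all higher, by 2.71-fold (log2 1.44, SE 0.20, adjusted p = 0.00165). Slc22a2, an organic cation transporter, measured 12.9, 13.1 and 13.9 CPM against 1.21, 0.250 and 2.17 CPM, a 12.4-fold difference (log2 3.64, adjusted p = 0.0012). Zpld1 (log2 5.23), Chodl (2.98) and Samd3 (3.61) were higher as well, and Lpar3 (3.13) lost its call without orbital library 1 or any dorsal library. Zpld1 followed the order of the orbital libraries seen for Prss56, with 15.8, 8.03 and 0.690 CPM against 0.319, 0 and 0.165 CPM.

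Many genes of immune cells and blood and some of the meninges were higher in orbital cortex. Of 16 microglia genes tested 12 were higher and none lower, beside 6.39% higher and 9.44% lower over all genes tested. All 16 fold changes were positive (median 0.95). Cd68, a lysosomal protein of phagocytes, measured 13.5, 21.0 and 25.6 CPM in orbital and 5.89, 8.59 and 8.99 CPM in dorsal cortex. The regions did not overlap, and Cd68 was 2.51-fold higher (log2 1.33, SE 0.19, adjusted p = 0.00165). The adaptor Tyrobp (log2 1.26) and the complement subunits C1qb (1.13) and C1qc (1.17) were higher, as were C1qa (0.92), the lipid receptor Trem2 (1.13), the growth factor receptor Csf1r (0.99) and Fcrls (0.92). C1qa and Trem2 lost their call without orbital library 1 or dorsal library 1 or 3, Csf1r without orbital library 1 or 2 or dorsal library 2 or 3, and Fcrls without orbital library 1 or 3 or dorsal library 3. Cx3cr1, the fractalkine receptor of microglia, measured 10.9, 19.1 and 4.89 CPM in orbital and 11.1, 17.4 and 5.24 CPM in dorsal cortex and did not pass (log2 0.01, adjusted p = 0.987). The summed level of the 16 genes was 402 to 486 CPM in orbital and 225 to 240 CPM in dorsal libraries. With the length trend removed 9 were higher (median 0.81), and 5 were called without orbital library 1 and 4 without dorsal library 3.

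All 20 meningeal fibroblast genes had a positive fold change (median 1.02, beside 0.03 over all genes tested). At the threshold 9 were higher and none lower, beside 6.39% higher and 9.44% lower over all genes tested. Ptgds, prostaglandin D synthase of the arachnoid, measured 853, 1370 and 1810 CPM in orbital and 181, 365 and 539 CPM in dorsal cortex, a 3.99-fold difference (log2 2.0, SE 0.30, adjusted p = 0.00197). Each orbital value lay above all dorsal values although whole rows differed in level. Foxc1, a forkhead factor of the meninges, had a log2 fold change of 1.41 and Slc6a13, a GABA transporter of the arachnoid, one of 1.72 (adjusted p = 0.00413 and 0.00573). Foxd1 (1.63), Ogn (1.39) and Dcn (1.14) were higher, and Foxd1 lost its call without orbital or dorsal library 1, Ogn and Dcn without orbital library 1 or 2 or dorsal library 2 or 3. Col1a1, the fibrillar collagen, measured 491, 504 and 477 CPM against 223, 253 and 277 CPM and did not pass (log2 0.99, adjusted p = 0.0537). The summed level was 3320 to 4520 CPM in orbital and 1480 to 2170 CPM in dorsal libraries. The count of 9 was 5 without orbital library 1 or dorsal library 3, 14 without orbital library 3, and 12 with the length trend removed.

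Of 6 red blood cell genes tested 5 were higher (median 1.16), beside 6.39% higher and 9.44% lower over all genes tested. The summed level of the list was 1670 to 2000 CPM in orbital and 605 to 1220 CPM in dorsal libraries. Alas2, the enzyme of haem synthesis in red cells, was higher by a log2 fold change of 1.20 and the haemoglobin genes Hbb-bs and Hba-a1 by 1.18 and 1.15. Reads of near-identical globin copies may be split between them. Alas2 lost its call without dorsal library 3, Hba-a1 without orbital library 3 or dorsal library 1 or 3, and Hbb-bs without orbital library 2 or dorsal library 1 or 3, and the count of 5 was 3 without orbital library 2, 1 without dorsal library 1 and 0 without dorsal library 3. Of 9 choroid plexus and ependyma genes tested 4 were higher (median 1.72), beside the same shares over all genes tested. The list had a summed level of at most 60.6 CPM in any library. Ttr, the defining transcript of choroid plexus, measured 0.677, 2.79 and 0.420 CPM in orbital and 0.0455, 1.0 and 0.395 CPM in dorsal cortex, and Ccdc153 and Tmem212 were at 0 in all 6 libraries. At most 2 choroid genes were called without any 1 library, and none with the length trend removed. Apoe, a lipid carrier of glia and macrophages, measured 697, 706 and 1290 CPM against 262, 332 and 604 CPM (log2 1.21, adjusted p = 0.0012), and the lysosomal and membrane proteins Cd63, Itm2c and Pmp22 were higher by log2 fold changes of 1.09, 0.86 and 1.07. H19, an imprinted noncoding RNA, measured 31.7, 30.6 and 55.9 CPM against 6.63, 7.84 and 15.1 CPM (log2 2.06, adjusted p = 0.00143). The part of these cell types in the other differences between the regions, and that of the dissection, was not tested.

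Genes of the retinoic acid pathway were higher in part. Of 23 tested 7 were higher and 2 lower (median 0.45), beside 6.39% higher and 9.44% lower over all genes tested. On the side of synthesis, Aldh1a2, the retinaldehyde dehydrogenase of the meninges, measured 83.6, 102 and 124 CPM in orbital and 36.6, 41.6 and 57.9 CPM in dorsal cortex. All orbital libraries were above all dorsal libraries, by 2.30-fold (log2 1.20, SE 0.25, adjusted p = 0.00787), a call lost without dorsal library 3. Rdh10, the retinol dehydrogenase of the preceding step, measured 12.0, 9.67 and 15.7 CPM against 5.40, 5.37 and 9.19 CPM (log2 0.93, adjusted p = 0.00641). The binding protein Crabp2, which carries retinoic acid to the nucleus, measured 26.9, 34.2 and 38.8 CPM against 7.65, 10.9 and 17.4 CPM (log2 1.56, adjusted p = 0.0017). The serum retinol carrier Rbp4 (1.51) lost its call without orbital library 1 or 3 or dorsal library 2 or 3. Crabp2 and Aldh1a2 are members of the meningeal list as well, and the part of the meninges in their differences was not tested.

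The degrading enzymes Cyp26a1 and Cyp26b1 had log2 fold changes of 2.03 and 0.07 and did not pass the test (adjusted p = 0.0892 and 0.956), and the receptor for retinol uptake Stra6 had one of 1.03 (adjusted p = 0.0594). Of the receptors, Rarb measured 7.41, 13.0 and 6.12 CPM in orbital and 3.75, 5.73 and 5.53 CPM in dorsal cortex, 1.74-fold higher (log2 0.80, SE 0.25, adjusted p = 0.0415). The regions did not overlap, orbital library 3 lying closest to the dorsal values, and the call was lost without any library but orbital library 3. Rxrg measured 2.36, 19.9 and 3.96 CPM in orbital and 1.76, 31.6 and 3.52 CPM in dorsal cortex, so that both libraries of row 2 stood far above the others and the regions did not separate (log2 -0.13, adjusted p = 0.87). The corepressor Ncor1 was lower (-0.57, adjusted p = 0.00708) and did not pass with the length trend removed. The count of 9 called genes was 5 without orbital library 1 or dorsal library 3.

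Rarb is itself a known target of retinoic acid, and the site before its start is shown for that reason (chr14:16575506-16575535, minus strand, RefSeq window of GRCm38.p6). The capitals mark the match to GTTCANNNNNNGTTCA, which was searched on both strands and which 22 of 32851 promoter windows hold (0.067%). It lies 36 bases before the start site.
Rarb: gggaaggGTTCACCGAAAGTTCActcgcat
RefSeq windows were not held for Crabp2 and Tyrobp.

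Glial and progenitor genes were partly higher. Of 18 astrocyte genes 6 were higher and none lower (median 0.23), beside 6.39% higher and 9.44% lower over all genes tested. Gjb6, a gap junction protein of astrocytes and meninges, measured 83.6, 102 and 92.4 CPM in orbital and 18.6, 21.8 and 35.3 CPM in dorsal cortex (log2 1.97, adjusted p = 0.00193). Its orbital libraries were well above its dorsal libraries in each row. The gap junction protein Gja1 (log2 1.25) lost its call without orbital library 1 or 2 or dorsal library 2 or 3, and S100b (1.35) without any library but orbital library 3. The list had 4 called members without orbital library 1, 3 without orbital library 2 or dorsal library 2 and 2 without dorsal library 3.

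Of 20 progenitor genes (radial glia and the intermediate progenitors they give rise to) 5 were higher and 2 lower (median 0.59). The shares over all genes tested were 6.39% higher and 9.44% lower. Vim, the intermediate filament of radial glia, measured 136, 110 and 107 CPM in orbital and 89.3, 65.4 and 61.7 CPM in dorsal cortex (log2 0.71, adjusted p = 0.00431). Gas1 (0.74), Hes5 (0.62) and Btg2 (0.71) were higher and Tnc (-1.17) and Notch1 (-1.26) lower. Btg2 lost its call without any 1 of the 6 libraries, Gas1 without any but dorsal library 1, Hes5 without any but orbital library 2, Notch1 without any but dorsal library 2, and Tnc without orbital library 2 or 3 or dorsal library 1 or 3. The list had 2 called members without orbital library 3 or dorsal library 3, 3 without orbital library 2 or dorsal library 1, 4 without dorsal library 2, and 3 with the length trend removed. Of 26 cell cycle genes 7 were higher and none lower (median 0.40), led by the centromere protein Cenpa (12.9, 12.2 and 13.8 CPM against 10.1, 6.26 and 5.47 CPM; log2 0.89, adjusted p = 0.00862; lost without orbital or dorsal library 3). No cell cycle gene was called without orbital library 3 or without dorsal library 3, 2 were called without dorsal library 2 and 4 without orbital library 2, and the row medians were -0.03, 0.72 and 0.74. With the length trend removed 3 cell cycle genes were higher. Mki67 and Top2a, markers of dividing cells, had log2 fold changes of 0.22 and -0.22 and did not pass (adjusted p = 0.68 and 0.688). The cyclin Ccnd3 was 118, 142 and 126 CPM in orbital and 58.6, 73.8 and 66.5 CPM in dorsal cortex (log2 0.96, adjusted p = 0.00156).

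Of 26 interneuron genes 4 were lower and 1 was higher (median -0.13), beside 9.44% lower and 6.39% higher over all genes tested. Sox6, a factor of interneurons from the medial ganglionic eminence, measured 17, 22.4 and 15.5 CPM in orbital and 29.7, 28.7 and 29.9 CPM in dorsal cortex. It was lower (log2 -0.71, adjusted p = 0.00849), a call lost without dorsal library 3. Npas1 (-0.56) and Prox1 (-0.79) were lower, each lost without at least 4 of the 6 libraries in turn (both without orbital library 2 and dorsal library 1, Npas1 also without orbital library 3 or dorsal library 3, Prox1 also without orbital library 1 or dorsal library 2), and the calcium-binding protein Calb1 was higher (1.15; lost without orbital library 3 or dorsal library 1 or 3). Gad1 and Gad2, the enzymes of GABA synthesis, did not pass (log2 0.16 and -0.51). The list had 2 called members without dorsal library 1 or 3 and 3 without orbital library 3.

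Among 38 Wnt, BMP and FGF signals 5 were higher and 1 was lower (median 0.20), beside 6.39% higher and 9.44% lower over all genes tested. All 5 higher ones were bone morphogenetic proteins. Bmp6 measured 57.7, 75.7 and 65.9 CPM in orbital and 21.6, 34.1 and 42.9 CPM in dorsal cortex, with no overlap (log2 1.10, adjusted p = 0.0164). Bmp7 (1.14), Bmp4 (1.17) and Bmp5 (1.02) were higher as well, and Bmp2 (1.29) lost its call without orbital library 1 or dorsal library 3. Bmp4, Bmp5 and Bmp6 kept theirs only without orbital library 3, and Bmp7 only without orbital library 3 or dorsal library 1. The list had at most 2 called members without any 1 library other than orbital library 3. The BMP genes are expressed by meninges and choroid plexus, and the part of these tissues in the differences was not tested. Of 28 receptors for serotonin, dopamine, noradrenaline and acetylcholine 2 were higher (Drd2 and the serotonin receptor Htr7) and 4 lower (median -0.12). The shares over all genes tested were 6.39% higher and 9.44% lower. The muscarinic receptor Chrm2 measured 8.90, 10.2 and 2.91 CPM in orbital and 24.6, 21.9 and 22.0 CPM in dorsal cortex (log2 -1.84, adjusted p = 0.00791), and the nicotinic subunit Chrna7 was lower by a log2 fold change of -1.48. Htr7 (1.70) kept its call only without orbital library 1, and the list had 3 called members without dorsal library 1 or 3. Among 30 neuropeptides and their receptors 2 were higher and 2 lower (median 0.18), beside the same shares over all genes tested. The higher ones were Penk and Cartpt. Cartpt (2.72) lost its call without any 1 of the 6 libraries, and the list had 2 called members without orbital library 1 or dorsal library 3 and 1 without orbital library 3 or dorsal library 1.

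The medial cortex of the same control rows stood between the regions for some genes and at one end for others. Its comparisons share libraries with the one above, so the values are set side by side. Lhx2 measured 45.0, 35.1 and 28.7 CPM in medial cortex, with log2 fold changes of -0.98 for medial against dorsal and -0.97 for orbital against medial (adjusted p = 0.0426 and 0.0133). Cux1 (104, 142 and 98.7 CPM in medial libraries), Cux2 and Inhba were lower in medial than in dorsal cortex (log2 -1.57, -1.50 and -2.11), and orbital against medial did not pass for any of the 3 (adjusted p = 0.0636, 0.425 and 0.753). Prss56 was at 0.0588 CPM or less in the medial libraries, with a log2 fold change of 9.64 for orbital against medial. Neurod1 measured 58.2, 54.6 and 87.6 CPM in medial cortex, close to its orbital values, and was higher in medial than in dorsal cortex (log2 1.62, adjusted p = 0.00439). Ptgds and Apoe had log2 fold changes of 1.16 and 1.17 for orbital against medial (adjusted p = 0.0303 and 0.00485).

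The dKO rows, which share no library with the control rows, gave the same comparison in mutant cortex. There 27 genes were higher and 64 lower in orbital cortex (0.486% of the genes tested, 0.144% higher and 0.342% lower). Of the genes higher in control orbital cortex, 75.7% had a positive fold change in the dKO rows, beside 49.4% of all genes tested, and of the lower genes 88.9% had a negative one, beside 50.6%. The median log2 fold change of these genes in the dKO rows was 0.18 and -0.18. In the same direction, 16 higher genes (1.34% of them) and 53 lower genes (3.0%) were called in the dKO rows too, and none was called in the opposite direction. These made up 59.3% of the higher and 82.8% of the lower dKO calls. Pcsk2 was among them (25.2, 50.4 and 22.7 CPM in dKO orbital, 117, 150 and 110 CPM in dKO dorsal cortex; log2 -2.0, adjusted p = 0.000143), as were Neurod1 (log2 2.18), Zbtb18 (-1.47), Cux1 (-1.0), Cux2 (-1.04), Inhba (-1.91), Tbc1d5 (-1.23), Cdh6 (-1.40), Emx1 (-1.16) and Msx3 (-4.22).

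Other genes had smaller values in the dKO rows than in the control rows. The difference between genotypes went toward a smaller size in dKO for 1166 of the 1196 higher and 1722 of the 1769 lower genes. These genes were selected by their control values, so a smaller size is not particular to those named here. Prss56 measured at most 0.222 CPM in any of the 6 dKO orbital and dorsal libraries, with a log2 fold change of 2.69. The microglia list had a median of 0.22 in the dKO rows, the meningeal list one of -0.09 and the upper layer list one of -0.55, with no microglia or meningeal gene called and 3 upper layer genes lower. Some lists had larger medians in the dKO rows: striatal 0.59 (control 0.13), olfactory bulb 0.76 (0.46) and astrocytes 0.39 (0.23). A difference between the dKO and control rows was called for none of 18730 genes by edgeR (2363 at an unadjusted p under 0.05) and for none by limma-voom, but for 313 by DESeq2 and for 578 when genes of low counts were not filtered. The lowest adjusted p of that difference was 0.126, reached by genes that included Itm2c, Rdh10, Flrt2, Nupr1 and Cxxc4. The synaptic adhesion protein Flrt2 had log2 fold changes of -0.20 in control and 1.23 in dKO rows, and the CXXC zinc finger gene Cxxc4 had values of -0.41 and 0.81.

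**Figure D5:**
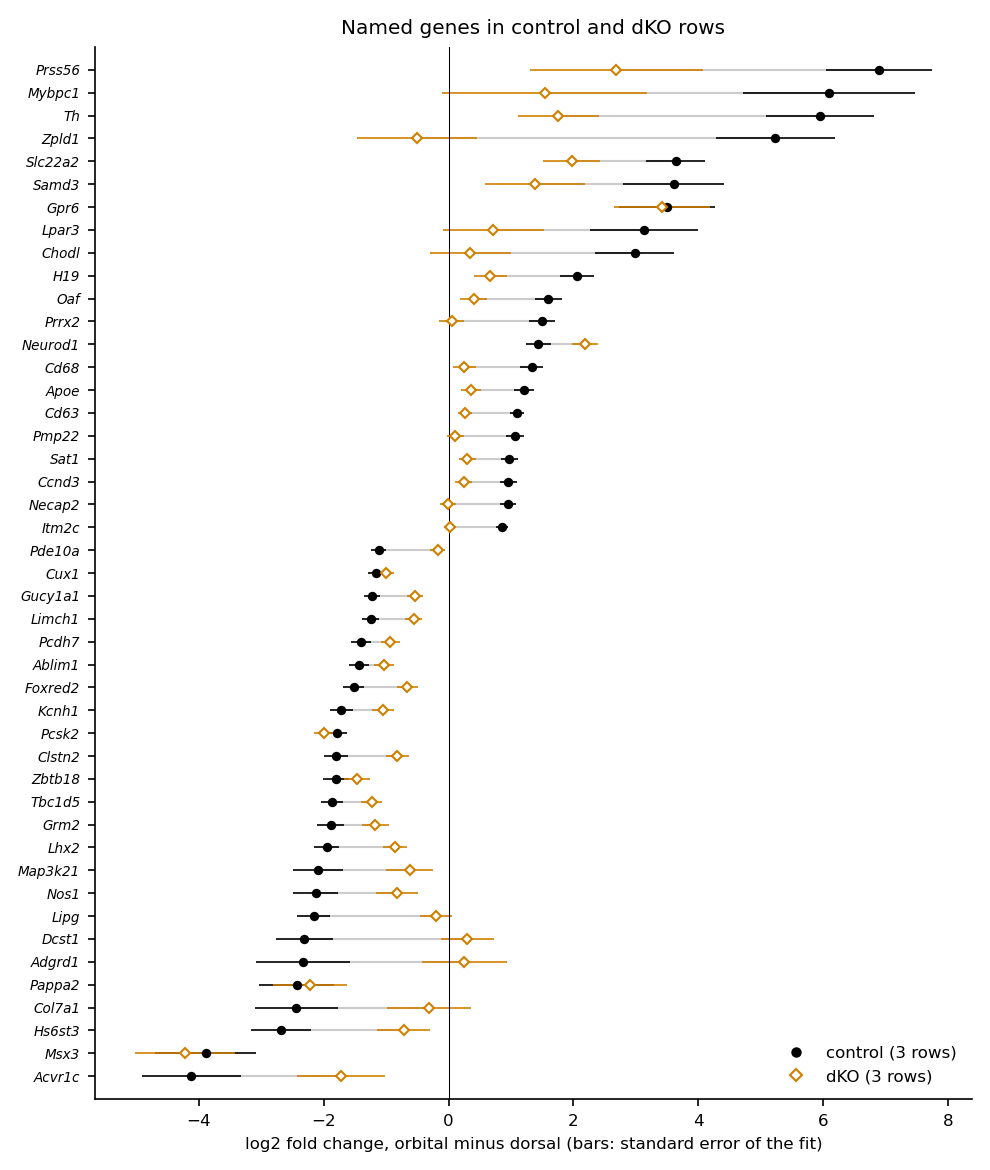
Log2 fold change, orbital minus dorsal, of 45 genes named for their p or fold change, in the 3 control rows (black circles) and the 3 dKO rows (open diamonds); bars are the standard error of the fit. Pcsk2, Cux1, Gpr6 and Msx3 lie at like values in both genotypes, while Prss56, Zpld1 and Lipg lie near 0 or at far smaller values in the dKO rows; no difference between the genotypes passed edgeR's test.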

How the data were processed

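RNA was measured in microdissected cortex by SMART-seq v4 and Nextera XT libraries with paired reads of 100 bases, per the labels' protocols. The authors deposited 1 table of raw counts per gene, made with STAR 2.6 and featureCounts 1.6.2 on GRCm38, per the submitters' processing notes and the file header. The strand setting is not given in the sources used here, so reads of a gene and of an antisense partner cannot be told apart. Columns were matched to samples by name, and 6 columns of per-sample counts that matched no sample were not used. The table held 54532 genes, of which 18730 passed edgeR's filter (minimum count 10, minimum total 15).

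Counts of all 18 libraries were fitted together with edgeR 4.0.16 in R 4.3.3 (limma 3.58.1), with TMM scaling, a term for each row and the orbital and medial differences within each genotype (8 residual degrees of freedom). The quasi-likelihood test was two-sided, with Benjamini-Hochberg adjustment and a threshold of 0.05. CPM are given without a prior count, and plots used matplotlib 3.10.9. The pairing comes from the library titles and index rows. Deviations from the group means correlated at 0.358, 0.28 and 0.495 between orbital and dorsal libraries of the same row and at -0.28 to -0.02 between different rows. The deviations of a group cancel out over its rows, so positive values within rows push those between rows to be negative. The procedure was tested on simulated data without differences between rows, which cannot test the use of the row as a block.

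Members and the 36 gene lists (714 genes) were chosen with earlier results of these data known. Named genes were the 15 with the lowest p and the 10 with the largest fold change in each direction. Another 5 were named for the difference between genotypes. These picks were limited to genes with a mean of at least 1 CPM and the same sign in all 3 rows. Up to 8 called members of each list were named by lowest p (filled up to 3 with uncalled ones). These list members, Rarb and Rxrg were named without those limits. Further uncalled genes given beside these were chosen after their values were seen. Alternatives were other scalings, no filter, DESeq2 1.42.0, limma-voom, no block, fewer libraries, a stricter threshold and removal of the exon length trend. Some genes that met these rules are not reported here.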

Additional observations from a re-analysis of the deposited data

Results flagged for a closer look

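In 11 of the named genes the 3 control rows all moved one way and the 3 dKO rows all the other way. Most named genes were chosen for their control rows, and no share over all genes is given beside this count. The value given for each is the dKO minus control difference of the orbital minus dorsal log2 fold change, and none passed edgeR's test of that difference.

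The bone morphogenetic proteins Bmp5, Bmp6 and Bmp7 had differences of -1.95, -1.68 and -1.52 (adjusted p = 0.163, 0.162 and 0.223). Bmp6 had row differences of 1.42, 1.15 and 0.62 in control and of -0.51, -0.76 and -0.48 in dKO cortex. Rdh10, the retinol dehydrogenase, had a difference of -1.52 (adjusted p = 0.126), with 1.15, 0.84 and 0.77 in the control rows and -0.57, -0.52 and -0.67 in the dKO rows. Nupr1, a stress-induced nuclear protein, had one of -2.13 (adjusted p = 0.126), and its call in the control rows was lost without orbital or dorsal library 1. The microglial receptor Trem2 had one of -1.51 (adjusted p = 0.171), vitronectin (Vtn), which pericytes make, one of -1.54 (adjusted p = 0.154), and Clic6, a choroid plexus gene, one of -2.59 (adjusted p = 0.308). In the other direction, Dcst1 had a difference of 2.61 (adjusted p = 0.171), the cadherin Cdh8 one of 1.01 (adjusted p = 0.149) and the netrin receptor Dcc one of 1.55 (adjusted p = 0.255). In the control rows the call of Clic6 was lost without orbital library 1 or 3 or dorsal library 1 or 2, and that of Dcc without any library but orbital library 2. Cdh8 had control rows at -0.58, -0.72 and -0.78 and dKO rows at 0.27, 0.33 and 0.37.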

How the results depend on the processing

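The count of 2965 genes called between control orbital and dorsal cortex was 53 with no replicate block, 1410 with the 9 control libraries only, 0 with the 6 libraries only and no replicate block (2181 at an unadjusted p under 0.05, edgeR; 2554 with the block) and 920 at a threshold of 0.01. Leaving out 1 library gave 1068 to 2223, and leaving out a control row 923 (row 3), 1430 (row 2) or 2146 (row 1). It was 2934 with RLE size factors, 2802 with upper quartile scaling (1494 higher and 1308 lower), 3432 without the filter, 4128 with DESeq2, 3094 with limma-voom and 2580 with the length trend removed. No gene was called in the opposite direction in any of these. Of the 209 named genes called, 20 kept their call without the block and 117 at 0.01. Of single genes not past the threshold, mt-Nd3 (0.73) turned to -0.22 without orbital library 2 and to -0.03 without row 2 (range -0.22 to 1.44 over these omissions), and Rxrg (-0.13) to 0.54 without dorsal library 2 and to 0.29 without row 2 (range -0.47 to 0.54); the cause was not tested. The 91 genes called in the dKO rows were 339 without the filter, 318 with DESeq2, 3 without the block, 22 at 0.01 and 143 with the length trend removed. The difference between genotypes was called for 0 genes, but for 578 without the filter and 313 with DESeq2. Row 1 was sequenced more deeply, and genes under about 1 CPM in rows 2 and 3 rest on few counts.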

Other observations

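Glial and vascular lists beyond those described above were mixed, and over all genes tested 6.39% were higher and 9.44% lower. Of 15 oligodendrocyte lineage genes 2 were higher in control orbital cortex and 1 was lower (median 0.08). Cnp, a myelin enzyme, measured 76.1, 56.9 and 68.1 CPM in orbital and 45.6, 24 and 38.9 CPM in dorsal cortex (log2 0.91, adjusted p = 0.00469, edgeR). Cspg4, a proteoglycan of oligodendrocyte precursors and pericytes, was lower (log2 -1.35, adjusted p = 0.0424), a call lost without orbital library 2 or 3 or dorsal library 1 or 3 and with the exon length trend removed (log2 -1.0, adjusted p = 0.0762). Of 18 genes of endothelial cells and pericytes 1 was higher and 2 lower (median 0.19). Abcc9, a potassium channel regulator of pericytes, had a log2 fold change of -1.36 and Vtn one of 1.24 (adjusted p = 0.00247 and 0.00557). Of 13 Cajal-Retzius genes 1 was higher and 2 lower (median -0.20), and 1 was called without orbital library 3 or dorsal library 1. With the length trend removed 1 was higher and none lower.

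Of 19 immediate early genes 1 was higher (Btg2) and none lower (median -0.04), beside 6.39% higher and 9.44% lower over all genes tested. None of 31 cytosolic ribosomal protein genes was called, although 30 had a positive fold change (median 0.24, and 0.05 with the exon length trend removed). None of 12 mitochondrially encoded genes was called (median -0.10).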
